A study of Mus musculus with 2 samples.

Results

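The genes Scgb3a2, Scgb1a1, Cyp2f2, Upk3a, Aldh1a7, Adam28 and S100a6 belong to the airway secretory lineage, and these 7 were measured in single epithelial cells of the embryonic mouse lung. They were taken by symbol from the 31053 genes listed for the control library, and each symbol matched 1 row. Secretory cells, which in the mature mouse airway include the club cells, line the conducting airways, where they release secretoglobins and break down inhaled chemicals with cytochrome P450 and aldehyde dehydrogenase enzymes. They arise in the part of the epithelium that makes the transcription factor SOX2, while the distal tips of the branching tree make SOX9 and give rise to the alveoli. The order in which secretory genes appear is a classical measure of how far airway cells have matured.

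The study asked what the LEF/TCF factors, which act on the DNA at the end of the Wnt pathway, do in lung epithelium. Lung epithelial cells were purified by fluorescence-activated sorting at embryonic day 15 and captured with the 10x Chromium 3′ kit, which tags each captured RNA molecule with a unique molecular identifier (UMI). There was 1 library of the genotype control and 1 library with the LEF/TCF transcription factors knocked out. How the knockout was made, the strain and the number of embryos are not given in the sources used here. Only the control library's expression was analysed, so every value below belongs to control cells. With 1 library there is no replicate spread and no test was made. The 95% confidence intervals (CI) given below are exact and cover counting error alone, not the spread between embryos.

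The control library held 3568 barcodes, and 29 barcode sequences also occurred among the 5342 barcodes of the knockout library. After removal of 111 barcodes with under 1000 genes or over 10% mitochondrial UMIs, 3457 cells remained, with 2013 to 112424 UMIs and a median of 12826. Some droplets may have held more than 1 cell: 249 cells (7.20%) held at least 4 UMIs of Xist, an RNA made in female cells, and also a UMI of a gene on the Y chromosome. These are called mixed-sex droplets below, although free RNA was not tested as a source of the Y-linked UMI. Scrublet, a doublet caller, called 0 of the 3457 cells, and whether it missed doublets was not tested. No cell was removed on this ground, and the values without these mixed-sex droplets are given where they moved.

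Cells were divided without use of the 7 genes. Of 3269 epithelial cells, 396 had a UMI of Sox2 and none of Sox9 and are called Sox2-positive, and 1810 had a UMI of Sox9 and none of Sox2 and are called distal. A further 282 cells had UMIs of both and 781 of neither. Other airway markers went with the gate. Sox21 was at 30.2 counts per 1000000 UMIs (CPM) in Sox2-positive and 1.46 CPM in distal cells, Tspan1 at 35.5 and 4.85 CPM, and Krt15 at 17.2 and 5.14 CPM. Sftpc, the surfactant gene that marks distal epithelium, was at 115 CPM in Sox2-positive and 1738 CPM in distal cells. The median depth was 9964.5 UMIs in Sox2-positive and 14366.5 UMIs in distal cells. It was 24756 UMIs in cells with both factors, of which 36.2% were such mixed-sex droplets, while the Sox2-positive cells held 4.80% and the distal cells 6.46%.

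Markers of other cell types were measured in the same classes. All 10 mesenchymal markers together were at 60.6 CPM in Sox2-positive and 38.8 CPM in distal cells. In Sox2-positive cells most of it was Fn1, with 189 of 289 UMIs, and Dcn, with 94. Dcn was at 19.7 CPM in Sox2-positive and 0.808 CPM in distal cells, a ratio of 24.4 (CI 15.6 to 39.6). Col3a1, Postn, Lum and Tbx4 had 0 UMIs in Sox2-positive cells, while Col3a1 had 5 and Lum 2 in distal cells. The 5 endothelial and 6 blood markers were at 1.26 and 1.05 CPM in Sox2-positive cells, with Cdh5, Kdr and Ptprc at 0. The 6 mesothelial markers together were at 211 CPM in Sox2-positive and 80.1 CPM in distal cells. Krt19, which epithelium also makes, held 872 of the 1008 UMIs in Sox2-positive cells, Upk3b and Lrrn4 were at 0, and Rspo1 was at 26.4 CPM against 6.18 CPM in distal cells. The part of these markers in the differences below was not tested.

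The secretory genes were strongly uneven across the SOX gate. Scgb3a2, Adam28, S100a6 and Aldh1a7 were all far higher in Sox2-positive than in distal cells, by ratios of CPM from 70.8 down to 6.04. Upk3a differed less, with a ratio of 2.88. Cyp2f2 and Scgb1a1, which mark mature club cells, were close to absent. Of the 7 genes, 5 reached the minimum of 50 UMIs over the classes compared, and all 5 had a ratio of at least 2, against 7.01% of all 11110 genes that reached it. A gene that reaches this minimum through the class where it is high, as Adam28 did, had to differ. The 7 genes were also chosen with earlier results of these data known, so the count and the median are descriptions. The median log2 ratio of the 5 genes was 3.82, against 0.13 for all genes tested.

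Scgb3a2 (ENSMUSG00000038791) encodes a small secreted secretoglobin that is among the early markers of airway secretory cells. It had 1680 UMIs in Sox2-positive cells, which is 352 CPM (CI 336 to 370), and 154 UMIs in distal cells, which is 4.98 CPM (CI 4.22 to 5.83). The ratio was 70.8 (CI 60.0 to 84.0), which placed it at rank 2 of the 11110 genes by ratio. Per cell, Sox2-positive cells ranged from 0 to 165 UMIs with a median of 0, and the 20 highest cells held 58.2% of all Scgb3a2 UMIs. The transcript was thus carried by a minority of the Sox2-positive cells at very unequal levels, and its counting interval does not cover this spread between cells.

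Scgb1a1 (ENSMUSG00000024653; chromosome 19, 9083636 to 9087958 on the minus strand) encodes the main secretoglobin of mature club cells. It had 7 UMIs in the whole set of kept cells, spread over 3 cells. A single cell held 5 of them. That cell had a total of 9298 UMIs, 102 of them from Scgb3a2, and no UMI of Sox2 or Sox9. The other 2 cells had 1 Scgb1a1 UMI each, with 16 and 3 Scgb3a2 UMIs. All 3 cells thus carried Scgb3a2, against 10.3% of the 3454 cells without Scgb1a1. In distal cells a count of 0 over 30925528 UMIs allows up to 0.0970 CPM.

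Aldh1a7 (ENSMUSG00000024747; chromosome 19, 20692953 to 20727562 on the minus strand) encodes a cytosolic aldehyde dehydrogenase. It was the most widely detected of the 7 genes. It stood at 448 CPM in Sox2-positive cells (CI 429 to 468) and 74.2 CPM in distal cells (CI 71.2 to 77.3), a ratio of 6.04 (CI 5.69 to 6.41). Sox2-positive cells ranged from 0 to 32 UMIs with a median of 4, and the 20 highest cells held only 16.9% of its UMIs. Its close paralog Aldh1a1 (ENSMUSG00000053279) was lower in both classes, at 60.6 and 5.34 CPM, with a ratio of 11.4 (CI 9.35 to 13.8). The 3′ ends that this kit reads differ between the paralogs: of 377 windows of 124 bases, the read length, in the last 500 bases of the longest Aldh1a7 transcript in GENCODE M21, 0 occurred in an Aldh1a1 transcript.

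Cyp2f2 (ENSMUSG00000052974; chromosome 7, 27119909 to 27133660 on the plus strand) encodes the cytochrome P450 that activates naphthalene in club cells. It had 12 UMIs in Sox2-positive cells, which is 2.52 CPM (CI 1.30 to 4.40), and 2 UMIs in distal cells, which is 0.0647 CPM (CI 0.00783 to 0.234). The ratio of 38.9 has a wide interval, 8.67 to 358. Both distal UMIs came from very deep cells, of 40324 and 87004 UMIs. A listed gene, Gm15883, overlaps Cyp2f2 on the other strand, and whether reads were counted by strand is not given in the sources used here.

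Upk3a (ENSMUSG00000022435; chromosome 15, 85017141 to 85022547 on the plus strand) encodes a uroplakin, a membrane protein first known from the bladder lining, and also marks a variant club cell found near neuroendocrine bodies. It was at 4.20 CPM in Sox2-positive cells (20 UMIs, CI 2.56 to 6.48) and 1.46 CPM in distal cells (45 UMIs, CI 1.06 to 1.95). The ratio of 2.88 (CI 1.61 to 4.98) was the lowest among the 5 genes with enough UMIs, at rank 294.

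Adam28 (ENSMUSG00000014725; chromosome 14, 68606027 to 68655842 on the minus strand) encodes a membrane-bound metalloprotease. It had 248 UMIs in Sox2-positive cells, or 52.0 CPM (CI 45.8 to 58.9), and 40 UMIs in distal cells, or 1.29 CPM (CI 0.924 to 1.76). With a ratio of 40.2 (CI 28.7 to 57.7) it ranked 6 among all genes tested. No Sox2-positive cell held more than 6 UMIs of it.

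S100a6 (ENSMUSG00000001025; chromosome 3, 90612882 to 90624181 on the plus strand) encodes a small calcium-binding protein that many epithelia and mesenchymal cells make. It was at 348 CPM in Sox2-positive cells (CI 332 to 365) and 24.7 CPM in distal cells (CI 23.0 to 26.5), a ratio of 14.1 (CI 12.9 to 15.4). Per cell it ranged from 0 to 56 UMIs with a median of 1 in Sox2-positive cells.

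For Scgb3a2, Aldh1a7, Adam28 and S100a6, cells with UMIs of both factors and cells with neither lay between the Sox2-positive and the distal cells. Scgb3a2 was at 134 CPM in cells with both (CI 126 to 143) and 82.1 CPM in cells with neither (CI 76.1 to 88.4). S100a6 was at 175 and 88.3 CPM, Aldh1a7 at 249 and 138 CPM, and Adam28 at 19.4 and 7.68 CPM, in the same order. None of the intervals of these 4 genes overlapped between neighbouring classes, but the same was not counted over all genes. Counting intervals are narrow at these depths: 28.8% of all 11110 genes tested had a ratio interval above 1 for Sox2-positive over distal cells. The cells with both factors included 36.2% mixed-sex droplets, and the part of these in their intermediate levels was not tested. For Upk3a the intervals of the cells with both (0.982 to 3.01 CPM) and with neither (1.51 to 3.74 CPM) overlapped each other and those of both the distal and the Sox2-positive cells.

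**Figure D1:**
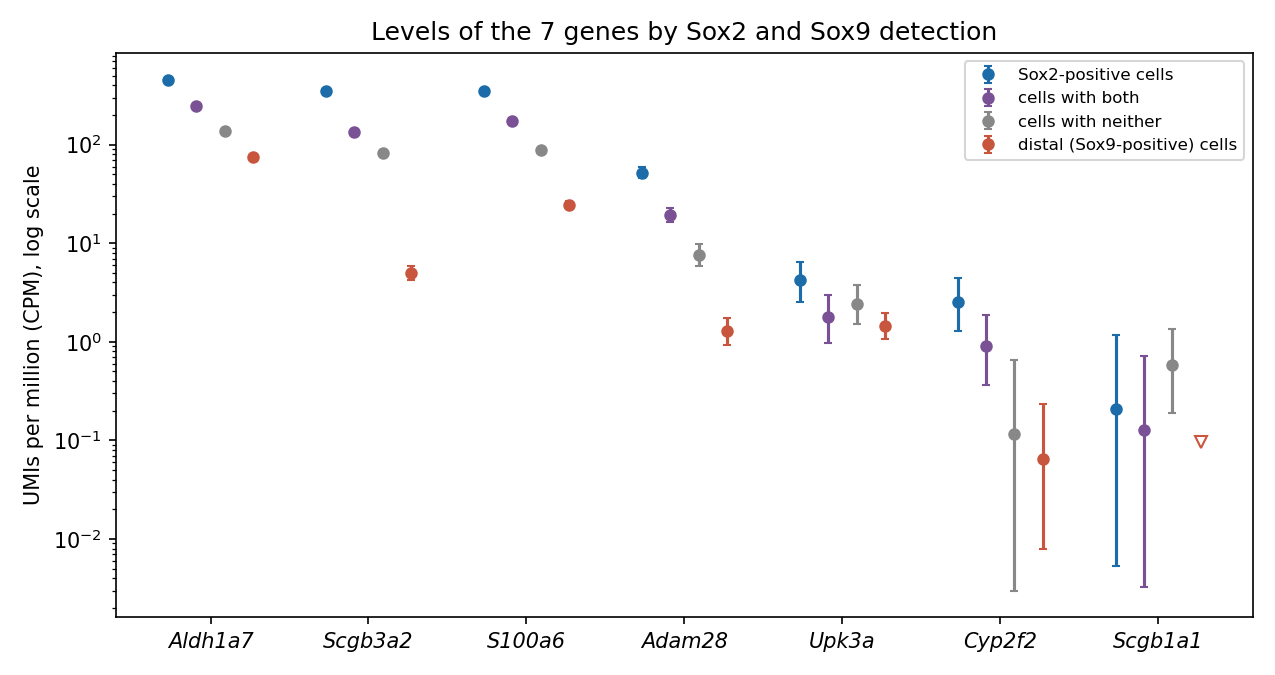
Level of each gene in CPM (vertical axis, log scale) in Sox2-positive cells, cells with UMIs of both Sox2 and Sox9, cells with neither, and distal (Sox9-positive) cells of the control library. Points are summed UMIs over the class, bars are 95% counting intervals, and the open triangle is the limit for a count of 0. Aldh1a7, Scgb3a2, S100a6 and Adam28 fall from left to right within each gene, from 352 to 4.98 CPM for Scgb3a2.

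The choice of cells moved the sizes of these ratios but not their direction. Scgb3a2 was 149.6 times higher (CI 96.2 to 246) and Adam28 131 times (CI 50.2 to 489) when only cells up to 14000 UMIs were used, and 13.6 and 17.4 times when Sox2 and Sox9 were read after thinning to 5000 UMIs. Upk3a was 1.09 times higher with that thinned gate, and its CI of 0.406 to 2.54 included 1. Without the mixed-sex droplets the ratios were 87.1 for Scgb3a2, 58.5 for Adam28, 15.6 for S100a6 and 6.62 for Aldh1a7.

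Where sequence was at hand, the 250 bases before the RefSeq start site were searched on both strands for short motifs of lung and airway factors. Promoters on the chromosome that holds Scgb3a2 were left out of the search. Of the 7 genes, Aldh1a7, Cyp2f2, S100a6 and Upk3a had an entry in the rest of the RefSeq promoter table (build GRCm38.p6). The motifs were CACTTGA and CTCAAG for NKX2-1, TGTTTAC for FOXA, ACAATGG for SOX, TTGCNNAA for C/EBP and AACNGGTT for grainyhead-like factors. Among the 32851 promoters searched, these occurred in 2.68%, 13.3%, 3.17%, 3.02%, 9.56% and 1.79%, in the same order. CACTTGA was found, as its reverse complement, 192 bases before the RefSeq start of Cyp2f2. That start lies 46 bases past the end of the stretch printed here, in which the match begins 146 bases before the end. CTCAAG was found 53 bases and TTGCNNAA 132 bases before the start of Upk3a. These are matches of letters, not shown to be bound. The promoters with a match are printed 5′ to 3′, up to the first annotated start site, with the matches in capitals, for Cyp2f2 (chr7:27119705-27119908, plus strand) and Upk3a (chr15:85016891-85017140, plus strand).
Cyp2f2: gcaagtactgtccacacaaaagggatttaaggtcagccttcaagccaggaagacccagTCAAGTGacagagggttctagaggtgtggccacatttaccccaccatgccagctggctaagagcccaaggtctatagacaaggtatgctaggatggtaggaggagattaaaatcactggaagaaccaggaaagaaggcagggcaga
Upk3a: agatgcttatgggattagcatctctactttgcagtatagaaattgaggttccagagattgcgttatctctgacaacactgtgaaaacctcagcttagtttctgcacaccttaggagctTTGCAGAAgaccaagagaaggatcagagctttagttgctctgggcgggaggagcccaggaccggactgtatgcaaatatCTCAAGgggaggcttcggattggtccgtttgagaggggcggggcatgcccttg

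Detection was compared after each cell had been thinned at random to 5000 UMIs, because deeper cells show more genes. This left out 21 Sox2-positive and 9 distal cells. Of 375 Sox2-positive cells, a UMI of Aldh1a7 was found in 84.5% (CI 80.5% to 88.0%), of S100a6 in 53.3% (CI 48.1% to 58.5%) and of Scgb3a2 in 28.8% (CI 24.3% to 33.7%). Adam28 was found in 21.3% (CI 17.3% to 25.8%), Upk3a in 1.60% (6 cells) and Cyp2f2 in 0.800% (3 cells). Scgb1a1 was found in 0 of the 375 cells, so that a share of 0.800% remains possible. Without thinning, the shares were 94.2% for Aldh1a7, 69.7% for S100a6, 37.4% for Scgb3a2, 35.6% for Adam28, 3.28% for Upk3a, 2.53% for Cyp2f2 and 0.253% for Scgb1a1. The order Aldh1a7, S100a6, Scgb3a2, Adam28, Upk3a, Cyp2f2, Scgb1a1 thus held at either depth, but the intervals of Scgb3a2 and Adam28 overlapped in both, as did those of Upk3a and Cyp2f2 and those of Cyp2f2 and Scgb1a1. A UMI marks a captured 3′ end, so this is an order of detection on the UMI scale, and capture can differ between genes.

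In distal cells at the same depth the shares were 27.0% for Aldh1a7 (CI 25.0% to 29.2%), 10.05% for S100a6, 1.39% for Scgb3a2 (CI 0.900% to 2.04%) and 0.555% for Adam28. Mesenchymal cells, which should lack the airway genes, were read beside them. Their gate left out cells with 3 or more epithelial markers, so they are a limited measure of free RNA. The median depth of all 34 mesenchymal cells was 8692 UMIs. Of the 31 with 5000 UMIs, 0 had a Scgb3a2 or Adam28 UMI, which allows up to 9.68%, 1 had an Aldh1a7 UMI (3.23%, CI 0.0816% to 16.7%) and 3 had an S100a6 UMI (9.68%, CI 2.04% to 25.8%). The S100a6 share in distal cells lay inside the wide interval of the mesenchymal cells, which can make S100a6 themselves. The share of Aldh1a7 in distal cells lay above the interval of the mesenchymal cells. There were 1.27 UMIs of Aldh1a7 for each UMI of Scgb3a2 in Sox2-positive cells and 14.9 in distal cells. The part of free RNA in the UMIs of distal cells was not tested.

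Scgb3a2 UMIs in distal cells were few and clumped. Of the 1810 distal cells, 48 had a UMI before thinning, 32 of them a single UMI, and the 5 highest cells held 74 of the 154 UMIs. Of those 48 cells, 81.25% had over 14000 UMIs, and the 848 distal cells at or below that depth held 20 Scgb3a2 UMIs in all. Whether droplets with an airway and a distal cell contributed was not tested.

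Detection of Scgb3a2, Aldh1a7, S100a6 and Adam28 was higher in cells with a Sox2 UMI than in cells without one. Sox2 was counted after thinning here, so cells with no Sox2 UMI include some that had one before. Over all epithelial cells thinned to 5000 UMIs, Scgb3a2 was found in 4.69% of the 2837 cells with no Sox2 UMI, 24.5% of the 253 cells with 1, 28.6% of the 77 cells with 2 and 42.5% of the 40 cells with 3 or more (CI 27.0% to 59.1%). The summed level of Scgb3a2 did not follow this order among cells with Sox2, at 334, 273 and 240 CPM for 1, 2 and 3 or more Sox2 UMIs. The step from 0 to 1 Sox2 UMI was larger than its counting error, and the intervals of the cells with 1, 2 and 3 or more overlapped. Aldh1a7 went from 34.8% in cells without a Sox2 UMI to 82.6%, 92.2% and 87.5%, and Adam28 from 2.82% to 19.0%, 13.0% and 35.0%. Upk3a was found in 0.916%, 0.395%, 3.90% and 0% of the same cells, and Scgb1a1 in none of those with a Sox2 UMI after thinning.

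The genes were then compared cell by cell within the Sox2-positive class, to order their onset by which were found together. Most cells with Scgb3a2 also had S100a6 and Aldh1a7, while many cells with those genes lacked Scgb3a2. Of the 108 cells with a Scgb3a2 UMI, 99 had Aldh1a7 (91.7%, CI 84.8% to 96.1%) and 86 had S100a6 (79.6%, CI 70.8% to 86.8%). In the reverse direction, 31.2% of the 317 Aldh1a7 cells had Scgb3a2 (CI 26.2% to 36.6%), as did 43.0% of the 200 S100a6 cells (CI 36.0% to 50.2%). The difference between the directions follows from how many cells have each gene. The size of the overlap is a separate measure: 86 cells had both S100a6 and Scgb3a2, where the product of the shares gives 57.6. For Aldh1a7 and Scgb3a2, 99 cells had both and the product gives 91.3.

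Among the 267 cells with no Scgb3a2 UMI, S100a6 was found in 42.7% and Aldh1a7 in 81.6%. Among the 175 cells with no S100a6 UMI, Scgb3a2 was found in 12.6%, and among the 58 cells with no Aldh1a7 UMI in 15.5%. Cells could be laid along a nested order, Aldh1a7 first, then S100a6, then Scgb3a2, in all but 42 of the 375 cells (11.2%, CI 8.19% to 14.8%), where the product of the shares gives 81.3 cells (21.7%). Read with Adam28, the most frequent pattern was Aldh1a7 alone, in 109 cells (29.1%). Aldh1a7 with S100a6 followed in 70 cells (18.7%), and these with Scgb3a2 in 53 cells (14.1%). All 4 genes were found in 27 cells (7.20%) and none in 34 (9.07%). In distal cells 2 of 1801 (0.111%) had all 4 and 66.5% had none.

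Adam28, read against the same order, was found in 36 of the 108 Scgb3a2 cells (33.3%, CI 24.6% to 43.1%) and in 44 of the 267 cells without Scgb3a2 (16.5%). The first share depended on depth, at 24.5% with 3000 UMIs a cell, 45.3% with 8000 and 59.5% without thinning. Of the 80 Adam28 cells, 77.5% had S100a6 and 45.0% had Scgb3a2, so 55.0% of them had no Scgb3a2 UMI. The nested order is an order of detection at this depth in 1 library at 1 age, and a gene of lower level is found later in it by sampling alone.

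**Figure D2:**
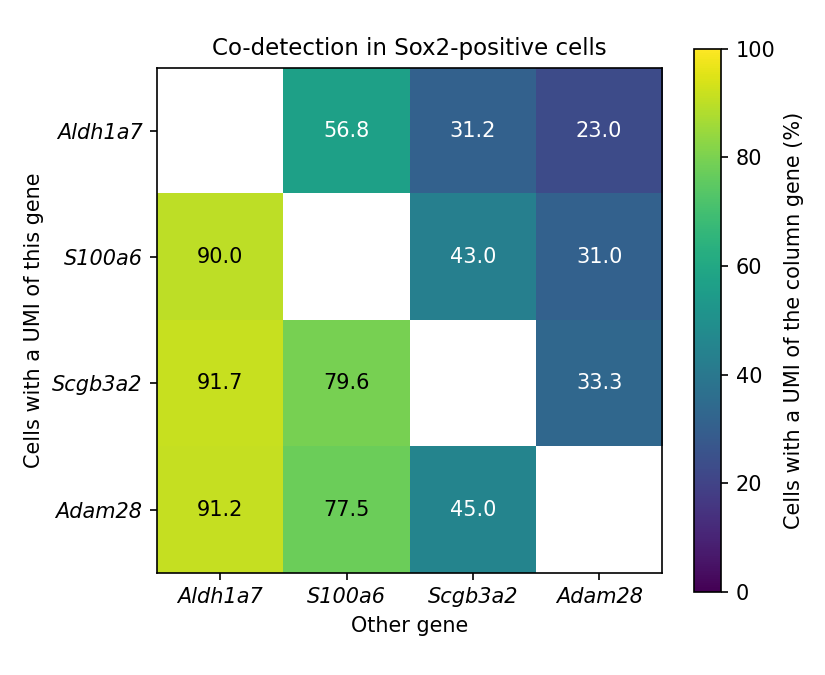
Co-detection in the 375 Sox2-positive cells at 5000 UMIs. Each square gives the percent of cells with a UMI of the row gene that also had a UMI of the column gene. The Aldh1a7 column is high for every row (90.0% to 91.7%), and the Scgb3a2 column lies between 31.2% and 45.0%.

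Cells were next grouped by their own Scgb3a2 count after thinning. S100a6 went up with Scgb3a2, Aldh1a7 was high throughout, and Adam28 was most frequent at low Scgb3a2 counts. S100a6 was found in 42.7% of the 267 cells with no Scgb3a2 UMI (CI 36.7% to 48.9%), 66.7% of the 54 cells with 1 to 2 UMIs (CI 52.5% to 78.9%), 90.9% of the 33 cells with 3 to 9 (CI 75.7% to 98.1%) and 95.2% of the 21 cells with 10 or more (CI 76.2% to 99.9%). Adam28 was found in 16.5%, 40.7%, 30.3% and 19.0% of the same cells, and the intervals of the 3 groups with Scgb3a2 overlapped. Aldh1a7 ran from 81.6% to 95.2%. Median depth before thinning was 10131, 10816, 12798 and 9565 UMIs in the 4 groups.

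Summed over cells, S100a6 was at 741 CPM in the 108 cells with Scgb3a2 and 222 CPM in the 267 without, a ratio of 3.33 (CI 2.86 to 3.88). Adam28 was at 87.0 and 46.4 CPM, a ratio of 1.87 (CI 1.25 to 2.78), and Aldh1a7 at 563 and 412 CPM, a ratio of 1.37 (CI 1.18 to 1.57). Upk3a had only 3 and 5 UMIs, too few to tell a difference (1.48, CI 0.230 to 7.62). Only 3 of the 6 other members reached 20 UMIs, and 1 of these, S100a6, had a ratio of at least 2, against 2.75% of 7060 genes, while 3.46% of these had a ratio of 0.5 or less and 0 of the 3 members did. All 3 had an interval above 1, against 4.11% of those genes. The genes were not matched for UMI count, and an interval clears 1 more easily at higher counts. Adam28, the lowest of the 3, had 47 and 62 UMIs, where 20 were enough to be counted. Without the mixed-sex droplets the ratio of S100a6 was 4.36. The CI of Adam28 reached below 1 when the gate asked for 2 Sox2 UMIs (ratio 1.42, CI 0.876 to 2.27) and when cells with 3 or more Scgb3a2 UMIs were set against those with none (ratio 1.59, CI 0.912 to 2.68).

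**Figure D3:**
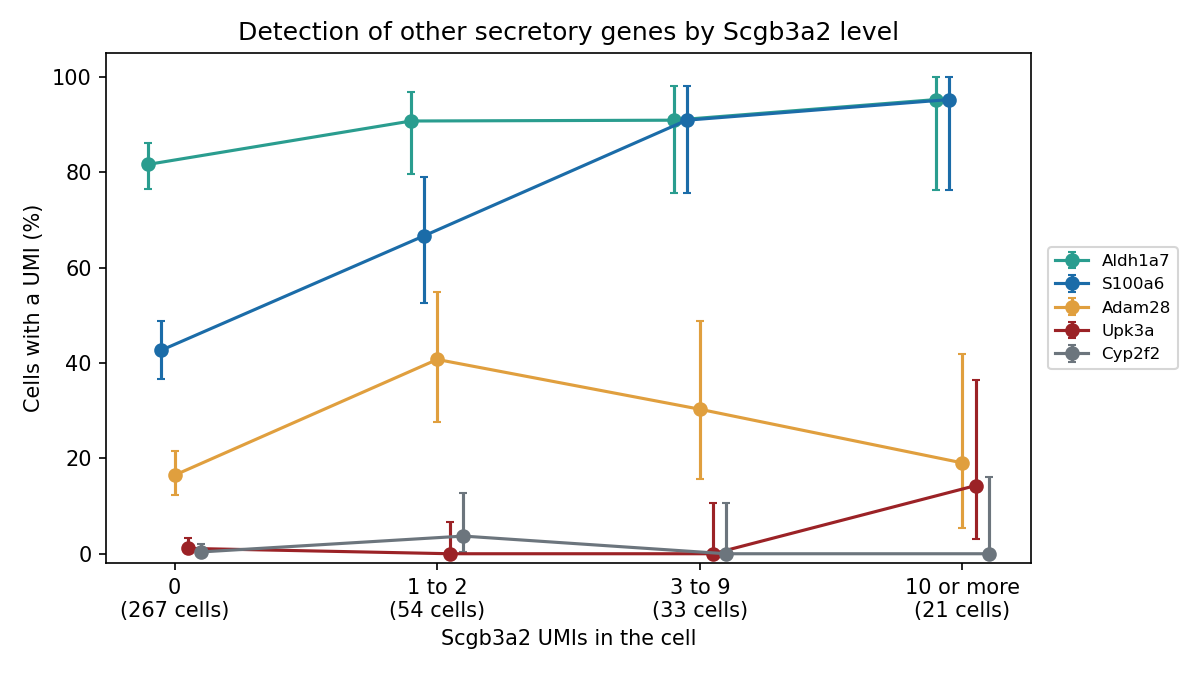
Percent of Sox2-positive cells with a UMI of each of 5 genes (vertical axis) by the cell's Scgb3a2 UMIs at a depth of 5000 UMIs (horizontal axis, number of cells in brackets). Bars are 95% binomial intervals. S100a6 goes from 42.7% to 95.2%, Adam28 from 16.5% over 40.7% to 19.0%, and Upk3a is found in 3 of the 21 cells with 10 or more Scgb3a2 UMIs.

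**Figure D4:**
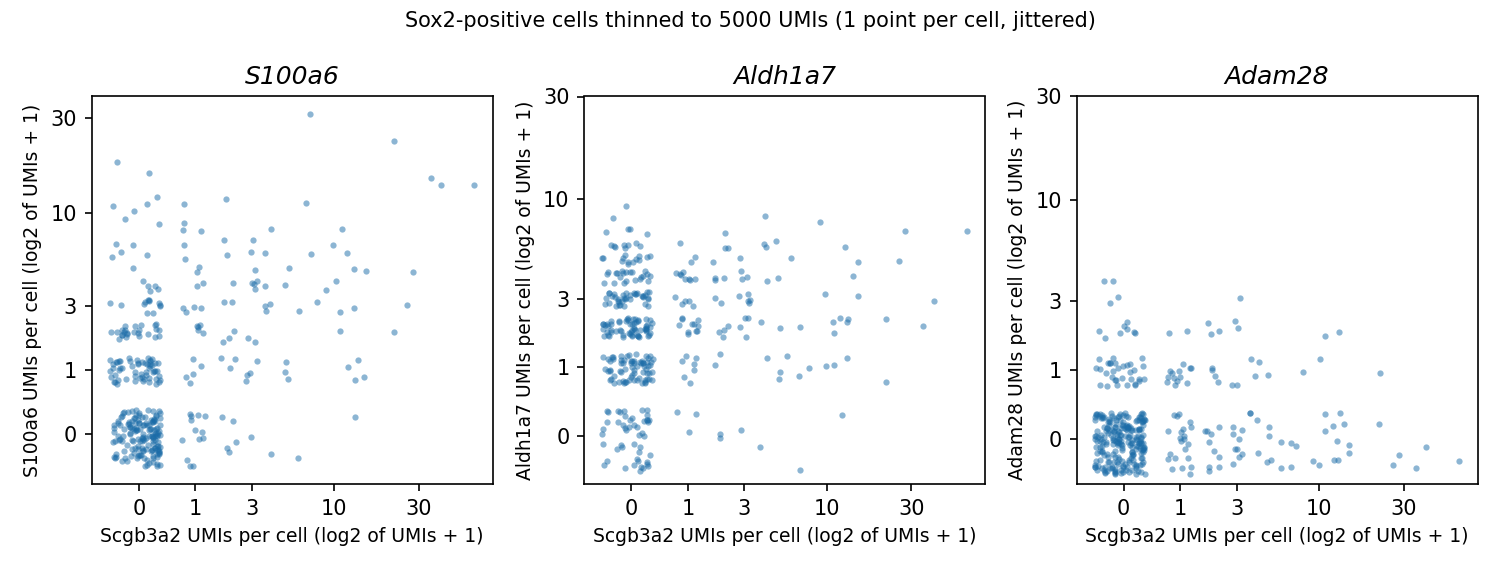
UMIs per cell of S100a6, Aldh1a7 and Adam28 (vertical axes) against Scgb3a2 (horizontal axes), both spaced as log2 of UMIs plus 1, for the 375 Sox2-positive cells at 5000 UMIs, with 1 jittered point per cell. Of the 21 cells with 10 or more Scgb3a2 UMIs, 95.2% have an S100a6 UMI and 19.0% an Adam28 UMI.

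Genes of dividing cells were found about as often with Scgb3a2 as without it. A UMI of Mki67 or Top2a was found in 35.2% of the 108 cells with Scgb3a2 (CI 26.2% to 45.0%) and in 34.5% of the 267 cells without (CI 28.8% to 40.5%). In distal cells it was found in 50.9% of 1801 (CI 48.5% to 53.2%).

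The rarer genes were followed through all kept cells before thinning. Upk3a was found beside high Scgb3a2 counts in Sox2-positive cells and mostly without Scgb3a2 in distal cells. Of the Sox2-positive cells, 13 had a Upk3a UMI, and 9 of these had Scgb3a2 (69.2%, CI 38.6% to 90.9%). Over all 13 cells the median was 15 Scgb3a2 UMIs and the highest count 165. Of the 383 Sox2-positive cells without Upk3a, 36.3% had Scgb3a2. The Upk3a-positive cell with the most Scgb3a2 was also the cell with the highest Scgb3a2 count of the class. Cells with both SOX genes gave a like picture, with Scgb3a2 in 8 of 12 Upk3a cells (66.7%) and a median of 20 Scgb3a2 UMIs over all 12. In distal cells, 41 cells had a Upk3a UMI and 1 of them had Scgb3a2 (2.44%, CI 0.0617% to 12.9%), which is close to the 2.66% of distal cells without Upk3a.

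Cyp2f2 was seen in 19 cells, and none held more than 3 UMIs of it. Of these, 10 were Sox2-positive, 5 had both factors, 2 were distal, 1 had neither and 1 fell outside the epithelial and mesenchymal gates. Scgb3a2 was present in 10 of the 19 (52.6%, CI 28.9% to 75.6%), against 10.1% of the 3438 cells without Cyp2f2. Within Sox2-positive cells it was present in 6 of 10 (60.0%, CI 26.2% to 87.8%), against 36.8% of the other 386, a share inside that interval. Cyp2f2 was thus also found in cells with no Scgb3a2 UMI, and its Sox2-positive cells had a median of 2 Scgb3a2 UMIs. Adam28 before thinning was found in 141 Sox2-positive cells, of which 62.4% had Scgb3a2 (CI 53.9% to 70.4%), against 23.5% of the 255 without Adam28.

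Other genes of airway cells were compared between Sox2-positive and distal cells. Of 36 further secretory cell genes, 12 reached 50 UMIs, 6 of these had a ratio of at least 2 and 0 a ratio of 0.5 or less, against 7.01% and 3.67% of all genes. Their median log2 ratio was 1.03. A gene that reaches the minimum through the class where it is high, such as Cbr2 (77 against 5 UMIs), had to differ. The lists were also chosen with earlier results of these data known, so the counts of this and the following lists are descriptions. Cldn10, a claudin of club cells, was at 468 and 95.6 CPM (ratio 4.90, CI 4.63 to 5.17), Ces1d, a carboxylesterase, at 38.4 and 10.4 CPM (ratio 3.70), and Cbr2, a carbonyl reductase, at 16.2 and 0.162 CPM (ratio 99.9, CI 41.0 to 316). Gsta4, a glutathione transferase, was at 192 and 119 CPM (ratio 1.62). Of the 36 genes, 10 had no UMI in either class. Between Sox2-positive cells with and without Scgb3a2, 12 of the 36 had enough UMIs. Of the 12, 1 had a ratio of at least 2 and 0 a ratio of 0.5 or less, against 2.75% and 3.46% of all genes. The interval lay above 1 for 2 of them and below 1 for 0. Cldn10, Ces1d, Cbr2 and Gsta4 had ratios from 0.960 to 1.47, each with a CI that included 1.

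Of 16 early airway genes, 9 had enough UMIs, not counting Sox2, which made the gate. Of these, 4 had a ratio of at least 2 and 2 a ratio of 0.5 or less, against 7.01% and 3.67% of all genes. Sox21, Tspan1, Wnt4 and Krt15 were the 4, with ratios of 20.8, 7.31, 7.09 and 3.35. Cldn3 was at 294 and 288 CPM (ratio 1.02, CI 0.963 to 1.08). Krt15, a keratin of basal and early airway cells, had 2 UMIs in the Sox2-positive cells with Scgb3a2 and 19 in those without, which is too few to tell a difference (0.260, CI 0.0294 to 1.08).

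Of 16 lung and secretory transcription factors, 14 had enough UMIs. Of these, 5 had a ratio of at least 2, or 3 once the median ratio of all genes was set to equal levels, and 2 a ratio of 0.5 or less. Before that shift, 7.01% and 3.67% of all genes tested passed these limits. Cebpb was at 116 and 41.4 CPM (ratio 2.81), Klf5 at 78.7 and 35.8 CPM (ratio 2.20) and Foxa1 at 76.0 and 37.7 CPM (ratio 2.01). Gata6, a factor of the distal epithelium, was at 23.5 and 64.0 CPM (ratio 0.367). Nkx2-1, made throughout the lung epithelium, was at 292 and 359 CPM (ratio 0.813, CI 0.768 to 0.860). Klf5 was also higher in the Sox2-positive cells with Scgb3a2, with a ratio of 1.86 (CI 1.31 to 2.63). Gata6 was lower, with a ratio of 0.275 (CI 0.0710 to 0.766, from 4 and 36 UMIs). The distal marker Sftpc was at 110 CPM in the cells without Scgb3a2. It was at 40.7, 30.3 and 19.0 CPM in those with 1 to 2, 3 to 9 and 10 or more Scgb3a2 UMIs. The part of distal transcripts in the difference of Gata6 was not tested.

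Notch signals are known to hold airway cells in the secretory fate. Of 15 Notch pathway genes, 9 had enough UMIs. Of these, 2 had a ratio of at least 2, Hey1 (2.44, CI 1.68 to 3.48) and Lfng (2.22, CI 1.70 to 2.88), and 1 had a ratio under 0.5, Dlk1 (0.0608). Over all genes tested these shares were 7.01% and 3.67%. Between Sox2-positive cells with and without Scgb3a2, 7 Notch genes had enough UMIs, of which 2 had an interval above 1, against 4.11% of all genes, and 1 below. The share of all genes with an interval below 1 was not counted, and the share above 1 was not matched for UMI count. The Notch targets Hes1 and Hey1 were higher in cells with Scgb3a2, 1.49 times for Hes1 (CI 1.18 to 1.89) and 2.70 times for Hey1 (CI 1.09 to 6.75, from 12 and 11 UMIs). Dlk1, a Notch ligand-like protein, was lower (0.371 times, CI 0.162 to 0.752, from 9 and 60 UMIs). The part of distal transcripts in this difference was not tested. Notch1, Notch2, Notch3 and Lfng had ratios from 0.899 to 1.18, each with a CI that included 1.

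Genes of the other airway lineages were examined in the same way. Of 13 ciliated cell genes, 4 had enough UMIs. Among these, Ccno (18.7 and 0.550 CPM, ratio 34.0) and Myb (ratio 2.75) had a ratio of at least 2 over distal cells, and Tppp3 and Rfx3 had ratios of 1.90 and 1.42. Of all genes tested, 7.01% had a ratio of at least 2. Foxj1, the factor of ciliated cells, had too few UMIs for a ratio. It had 3 in Sox2-positive cells (0.629 CPM) and 22 in distal cells (0.711 CPM). Uchl1, a ubiquitin hydrolase known from neuroendocrine cells, was at 90.2 CPM in Sox2-positive and 80.7 CPM in distal cells (ratio 1.12). It was lower in the Sox2-positive cells with Scgb3a2 than in those without (0.484 times, CI 0.311 to 0.730).

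**Figure D5:**
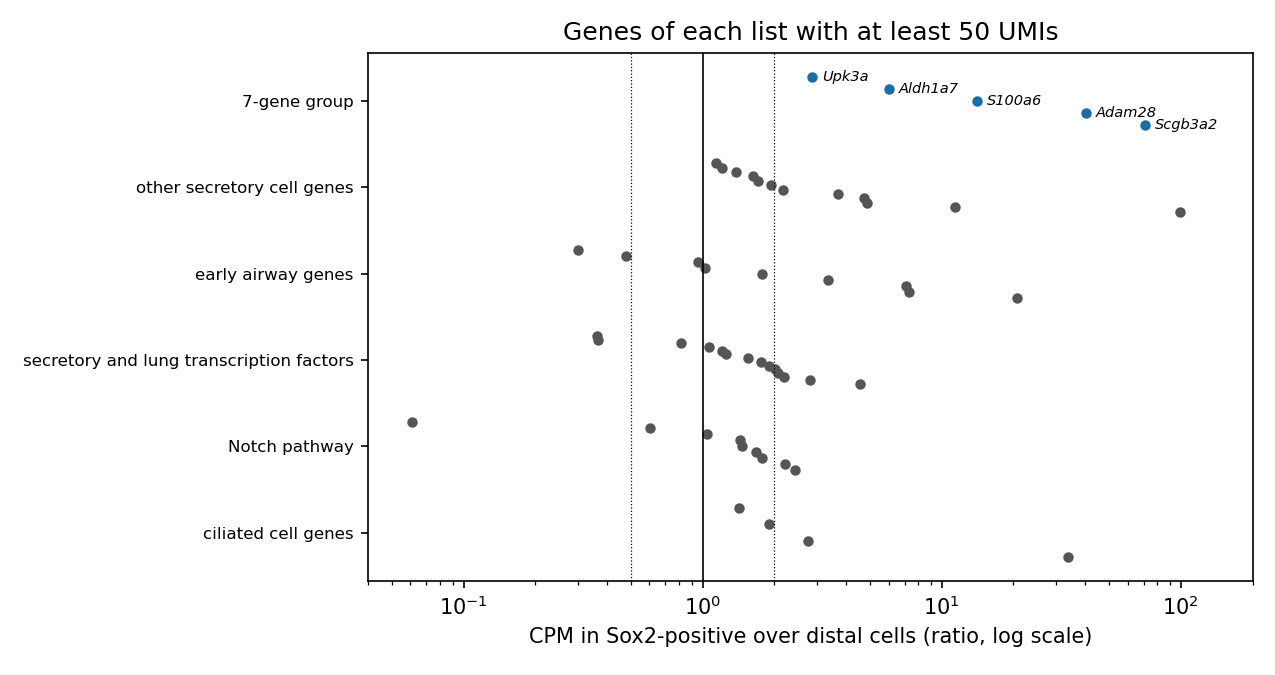
Ratio of CPM in Sox2-positive over distal cells (horizontal axis, log scale) for each gene with at least 50 UMIs, 1 point per gene, by list (vertical axis). The solid line marks equal levels and the dotted lines ratios of 0.5 and 2. In the top row, which holds the 5 members with enough UMIs, Upk3a (2.88) is lowest and Scgb3a2 (70.8) highest, and among the other secretory genes Cbr2 (99.9) lies furthest right.

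The genes most like each member were sought over the 396 Sox2-positive cells, by Pearson's r of log-scaled UMIs per 10000 among 9444 other genes seen in at least 5% of the cells. These are descriptions of single cells from 1 library, which share depth and free RNA. For Scgb3a2 the 5 highest were S100a6 (r = 0.56), Stxbp6 (r = 0.40), Cited1 (r = 0.39), Mgst1 (r = 0.35) and Wfdc2 (r = 0.30). Stxbp6 and Cited1 were also higher in Sox2-positive than distal cells, with ratios of 2.33 and 3.76, while Wfdc2, an antiprotease-like gene of lung epithelium, was not (567 and 682 CPM). For S100a6 the highest were Scgb3a2, Klf5 (r = 0.45) and Anxa2 (r = 0.42), and for Adam28 they were S100a6 (r = 0.40), Klf5 (r = 0.28) and Stox2 (r = 0.26). Aldh1a7 had a different set, namely Cdkn1c, a cell-cycle inhibitor (r = 0.38), Aldh1a1 (r = 0.35) and Pkm (r = 0.35), and its r with Scgb3a2 was 0.17. In the 285 cells of at most 14000 UMIs, r with Scgb3a2 was 0.53 for S100a6 and 0.14 for Aldh1a7.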

How the data were processed

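UMI counts, not normalized, were used as the authors deposited them. The matrix header names software version 3.0.1, and the submitters' processing notes name Cell Ranger, Seurat and build mm10. The annotation and the cell-calling rule are not given in the sources used here. Positions come from GENCODE M21 (GRCm38), where 31011 of 31053 identifiers were found. Expression of the knockout library was not analysed here. The 7 genes and the gene lists were chosen with earlier results of these data known. Some results of the listed neuroendocrine cell genes are not reported here.

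Cells with at least 1000 genes and at most 10% mitochondrial UMIs were kept. Epithelial cells had UMIs of at least 3 of 5 markers (Epcam, Cdh1, Krt8, Krt18, Nkx2-1) and of fewer than 4 of 10 mesenchymal markers, and mesenchymal cells had at least 4 of those and fewer than 3 of the epithelial ones. UMIs were summed per class and scaled to CPM, with exact Poisson, Clopper-Pearson and conditional 95% intervals for levels, shares and ratios. The limit for a count of 0 is 3 counts. Shares used random thinning to 5000 UMIs (seed 0). Named list genes were the up to 4 of highest CPM in Sox2-positive cells with a ratio of at least 2 or at most 0.5, and the highest of the rest; Foxj1, Rfx3, Notch1, Notch2, Notch3, Dcn and Rspo1 were named after their values were seen. Likeness was ranked for members with at least 100 UMIs. The ratios with their intervals and the likeness ranking were tested on simulated data, and thinning was checked on 200 real cells. Python 3.11.15, numpy 2.4.6, scipy 1.17.1 and scanpy 1.11.5 (Scrublet, expected rate 0.03; Leiden clustering as an alternative gate, leidenalg 0.10.2) were used.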

Additional observations from a re-analysis of the deposited data

How the results depend on the processing

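Of 356 alternative values, 288 stayed within counting error or within 1.5 times of the reported count, and 68 moved beyond it. A change of direction could be scored only for ratios, not for counts or shares, and 0 ratios changed direction. The ratio over distal cells ranged from 8.86 to 22.2 for S100a6 and from 4.38 to 9.40 for Aldh1a7, and 4 to 5 members had a ratio of at least 2 over 10 alternatives. The share of Sox2-positive cells with Scgb3a2 was 34.1% with a gate at 2 UMIs and 37.4% without thinning. The share of Scgb3a2 cells with S100a6 was 68.4% at 3000 UMIs, 90.5% at 8000 UMIs and 91.2% without thinning. The ratio of S100a6 between cells with and without Scgb3a2 ranged from 2.46 to 4.39. With the gate on thinned UMIs, 3 transcription factors and 1 Notch gene had a ratio of at least 2. Setting the median log2 ratio of all genes, 0.13, to 0 left 3 transcription factors, and 615 genes higher and 482 lower (56.1% higher, against 65.6%). A minimum of 10 UMIs gave 1484 genes at or above 2 and 823 at or below 0.5, and 1 UMI in each class gave 2415 and 632. The cause of these shifts was not tested. A gate on any Sox2 UMI was added after seeing the data. No interval was computed for means over cells, and no Cyp2f2 ratio where distal cells had too few UMIs. No paired analysis was possible because there was 1 library per genotype. Depth limits Scgb1a1, Cyp2f2 and Upk3a, and 1 library leaves the spread between embryos unknown.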
